A study of Mus musculus with 18 samples.

Results

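The genes described here are the inhibitor of DNA binding genes Id1, Id2, Id3 and Id4, and 6 genes of the bone morphogenetic protein (BMP) pathway, namely the ligand gene Bmp4, the receptor gene Bmpr1a and the SMAD genes Smad1, Smad5, Smad6 and Smad7. They were chosen by symbol, and they are 10 of the 53672 genes that each library lists. BMP ligands act through pairs of type I and type II receptors, which phosphorylate SMAD1 and SMAD5. These SMADs enter the nucleus with SMAD4 and bind near target genes, of which the Id genes are the best known, while the inhibitory SMADs, SMAD6 and SMAD7, are targets themselves and dampen the signal. ID proteins have a helix-loop-helix domain but no DNA-binding region and hold E proteins and related factors away from DNA, and in mouse embryonic stem cells (ESCs) grown with leukemia inhibitory factor and serum, BMP-driven Id expression is known for its part in holding back differentiation.

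RNA-seq was performed on mouse E14TG2a ESCs in which both alleles of Hdac1 and Hdac2 are flanked by lox sites (Hdac1/2lox/lox), so that 4-hydroxytamoxifen (OHT) removes both histone deacetylases. Each of 3 lines carried a stable piggyBac transgene for a Flag-tagged HDAC1, which was wild type (HDAC1-WT) or held a single amino acid change (HDAC1–E63R or HDAC1–Y48E), and RNA was collected on day 5 from untreated cells and from cells given 1 µM OHT. There were 3 libraries in each of the 6 groups and 18 in all. Untreated cells still hold their own Hdac1 and Hdac2 beside the transgene, and since each transgene was in 1 line, its effect and that of its line cannot be told apart. The study calls the replicates biological, but the sources used here do not say whether they were separate cultures, and p-values measure the spread between these libraries only.

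Counts on genes lay between 9019615 and 11454638 per library, and levels are given in CPM (counts scaled to a common library size with TMM factors), on which a floor of 3 counts stood between 0.248 and 0.343. Such a floor covers counting error only, since the reads carry no molecular identifiers and may be copies of each other. Untreated replicate 3 of the HDAC1–E63R line stood apart from its group, with a chi-square per degree of freedom of 55.1 and 61.1 against the other replicates, and with a TMM factor of 0.814. For the 10 genes and the pathway genes named other than Smad9, log2 differences called with it are also given without it. All 6 groups shared 1 estimate of the spread, so this library also entered the tests of the HDAC1-WT and HDAC1–Y48E lines. Only the fits of the compared libraries alone leave it out there. A gene passed the test when its edgeR quasi-likelihood p, adjusted by the Benjamini-Hochberg method over 18791 tested genes, was under 0.01, and it was a DEG when it had also changed by more than 1 on the log2 scale. All 10 genes were among those tested. Hdac1 itself, whose counts may hold reads of the transgene, went from a mean of 205 to 174 CPM after OHT with HDAC1-WT, from 105 to 122 with HDAC1–E63R and from 101 to 112 with HDAC1–Y48E, and it was no DEG in any of these (edgeR adjusted p = 0.344, 0.0886 and 0.221). Hdac2 went from 195 to 124, from 177 to 153 and from 151 to 144 CPM in the same order (edgeR adjusted p = 0.0125, 0.194 and 0.649), so these totals did not settle the OHT labels. The 10 markers of ESCs were all detected in every group.

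Id2, Id3 and Id4 differ in their sequence close to the transcription start that RefSeq gives. The 250 bases before each start annotated by RefSeq (GRCm38.p6) were searched on both strands for the SMAD1/5 motif GGCGCC and its longer form TGGCGCC, for the SMAD binding element GTCT and its palindrome GTCTAGAC, each longer form holding the shorter one, and for the E box CANNTG, which ID proteins keep E proteins from. Windows were found for 8 of the 10 genes, and no entry matched Id1 or Smad7. Of the 10 windows of these 8 genes, of which the 3 of Smad5 lie close together and partly share bases, 4 held GGCGCC and 7 held GTCT, against 9.59% and 82.9% of all 32851 windows. CANNTG was in 4 of the 10 windows, against 66.2% of all, and TGGCGCC and GTCTAGAC were in none of them, against 3.21% and 0.167%. Between 60.0% and 78.8% of the bases of these 10 windows were G or C. That share was not measured for all windows, so these counts are not corrected for base composition. The windows around the SMAD motifs of Id2, Id3 and Id4 are printed because these genes differed in how far they changed after OHT, with the motif in capitals (AGAC is GTCT on the other strand).
Id2 (chr12:25096308-25096333, minus strand): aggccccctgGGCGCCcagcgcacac
Id2 (chr12:25096102-25096125, minus strand): tgcacataaaAGACgccccgcccg
Id3 (chr4:136143646-136143669, plus strand): cctcggcgtcAGACcagcctaagg
Id3 (chr4:136143744-136143767, plus strand): acccttggcgGTCTgttttgaata
Id4 (chr13:48260958-48260983, plus strand): cgggttgcccGGCGCCccgccctcgc
The motifs of Id2 begin at positions -231 and -23 from its start, those of Id3 at -166 and -68, and that of Id4 at -148. Id2 had both kinds of motif, Id3 only GTCT and Id4 only GGCGCC, and a match is a description of letters, not of binding. The motifs of Id3 and the GTCT of Id2 lie in an exon of the GENCODE annotation, whose starts for Id2 and Id3 are further upstream. The GGCGCC of Id2 also lies within the gene in that annotation, though in no exon, and that of Id4 lies before the gene.

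In cells rescued with HDAC1–Y48E, the Id genes other than Id4 rose after OHT, and none of the other 6 of the 10 genes did. Id1 rose 10.3-fold, Id2 3.11-fold and Id3 23.2-fold. In cells rescued with HDAC1–E63R, Id1 rose 3.26-fold and Id3 6.07-fold, and Bmp4 and Smad7 rose by less than 2-fold. With HDAC1-WT no gene of the 10 passed the test. These are levels in bulk RNA, in which fewer cells of a type and less RNA per cell cannot be told apart.

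**Figure D1:**
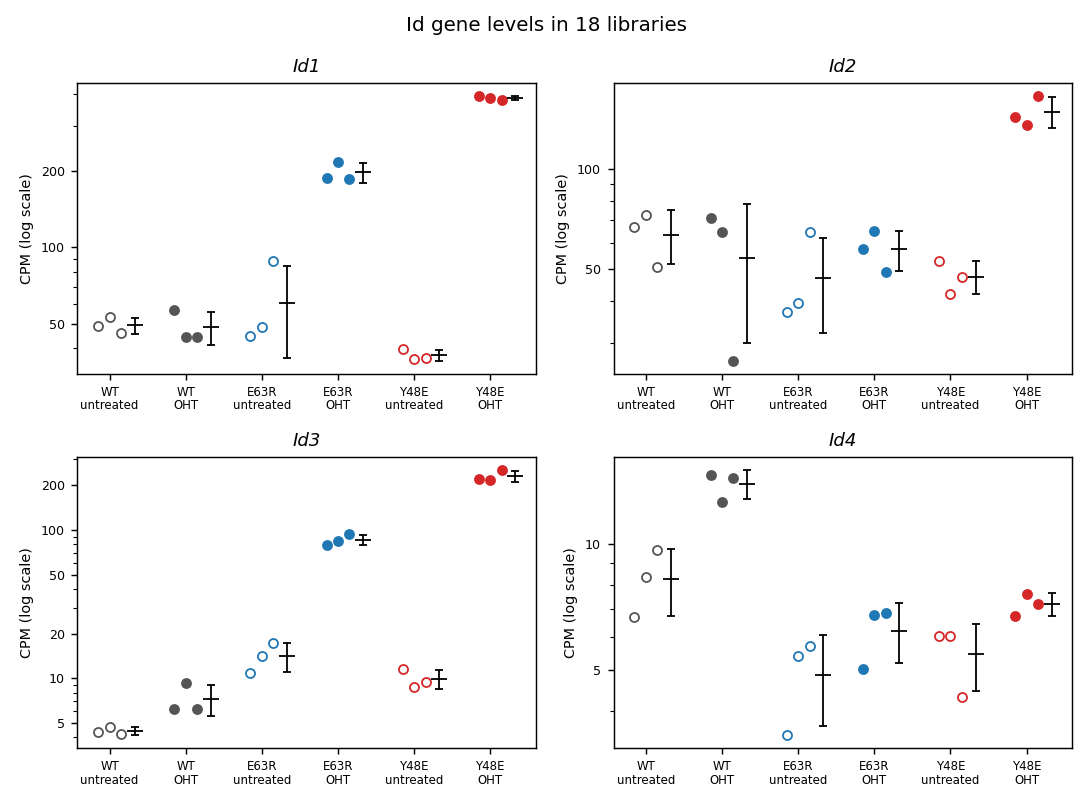
Levels of the 4 Id genes in CPM on a log scale in each of the 18 libraries, by rescue line and treatment (open points, untreated; filled points, OHT; bars, mean and SD of 3 libraries). The 3 OHT-treated HDAC1–Y48E libraries lie above all others for Id1, Id2 and Id3, whereas for Id4 the OHT-treated HDAC1-WT libraries are highest.

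Id1 (chromosome 2, 152736251 to 152737410 in mm10, plus strand) encodes an ID protein and is a standard readout of BMP signalling. Its 3 untreated HDAC1-WT libraries held 49, 53 and 46 CPM and the OHT-treated ones 56.7, 44.4 and 44.5 CPM. With HDAC1–E63R it stood at 44.9, 48.7 and 88.3 CPM without OHT and at 188, 217 and 186 CPM with it. With HDAC1–Y48E it went from 39.7, 36.3 and 36.7 CPM to 393, 387 and 380 CPM. The treated and untreated groups did not overlap in either mutant line, they overlapped in the HDAC1-WT line, and the value of 88.3 belongs to the library that stands apart. The log2 fold change was 3.36 (standard error, SE, 0.18, edgeR adjusted p = 5.48e-12) with HDAC1–Y48E and 1.70 (0.17, edgeR adjusted p = 3.63e-07) with HDAC1–E63R, or 2.07 without that library. In the HDAC1-WT line it was -0.03 (0.17, edgeR adjusted p = 0.992).

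Id3 (chromosome 4, 136143497 to 136145755, plus strand), the Id gene with the largest changes, was low in HDAC1-WT cells, at 4.37, 4.71 and 4.20 CPM without OHT and 6.26, 9.25 and 6.27 CPM with it. HDAC1–E63R cells had 10.9, 14.2 and 17.4 CPM without OHT and 79.4, 84.5 and 93.3 CPM with it. HDAC1–Y48E cells had 11.5, 8.77 and 9.48 CPM without OHT and 220, 218 and 253 CPM with it. All OHT-treated mutant libraries were thus above all of the other libraries, and treated and untreated groups were apart in each of the 3 lines. The log2 fold change was 4.53 with HDAC1–Y48E (SE 0.17, edgeR adjusted p = 3.16e-14) and 2.60 with HDAC1–E63R (0.16, edgeR adjusted p = 7.39e-10), or 2.78 without the library that stands apart. The difference in the HDAC1-WT line, 0.71 on the log2 scale (0.20), did not pass the test (edgeR adjusted p = 0.154).

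Id2 (chromosome 12, 25093799 to 25097140, minus strand) passed the test in the HDAC1–Y48E line. Without OHT its libraries held 52.9, 42.1 and 47.3 CPM with HDAC1–Y48E, and with OHT 143, 135 and 165 CPM, a log2 fold change of 1.64 (SE 0.25, edgeR adjusted p = 1.83e-05). In HDAC1–E63R cells it had 37.2, 39.6 and 64.4 CPM without OHT and 57.4, 65 and 49.1 CPM with OHT, a difference of 0.28 (0.25, edgeR adjusted p = 0.447). Here the groups overlapped only through the untreated library that stands apart, without which the difference was 0.57 and still missed the test (edgeR adjusted p = 0.0235). HDAC1-WT cells had 66.9, 72.8 and 50.5 CPM without OHT and 71.3, 64.6 and 26.5 CPM with it, with OHT replicate 3 lowest of all 18 libraries. Their difference was -0.23 (0.25, edgeR adjusted p = 0.851), and 0.10 without that replicate. Gm6175 is 91.8% identical to Id2 over 380 bases of exon, so that part of the reads of Id2 may have been split or left uncounted.

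Id4 (chromosome 13, 48261228 to 48266026, plus strand) was the Id gene whose OHT response passed the test in no line. Its level was 6.70, 8.34 and 9.70 CPM in untreated HDAC1-WT cells and 14.6, 12.6 and 14.4 CPM after OHT. In HDAC1–E63R cells it went from 3.51, 5.42 and 5.72 CPM to 5.05, 6.76 and 6.85 CPM, and in HDAC1–Y48E cells from 6.05, 6.03 and 4.31 CPM to 6.72, 7.62 and 7.2 CPM. Treated libraries were above untreated ones with HDAC1-WT and HDAC1–Y48E and overlapped them with HDAC1–E63R. The differences were 0.75 (SE 0.24, edgeR adjusted p = 0.226), 0.35 (0.25, edgeR adjusted p = 0.335) and 0.39 (0.25, edgeR adjusted p = 0.211) on the log2 scale for HDAC1-WT, HDAC1–E63R and HDAC1–Y48E. Exons of A330033J07Rik and Gm49291 on the other strand overlap 2.13% and 4.44% of those of Id4, and whether reads were counted by strand is not given in the sources used here.

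**Figure D2:**
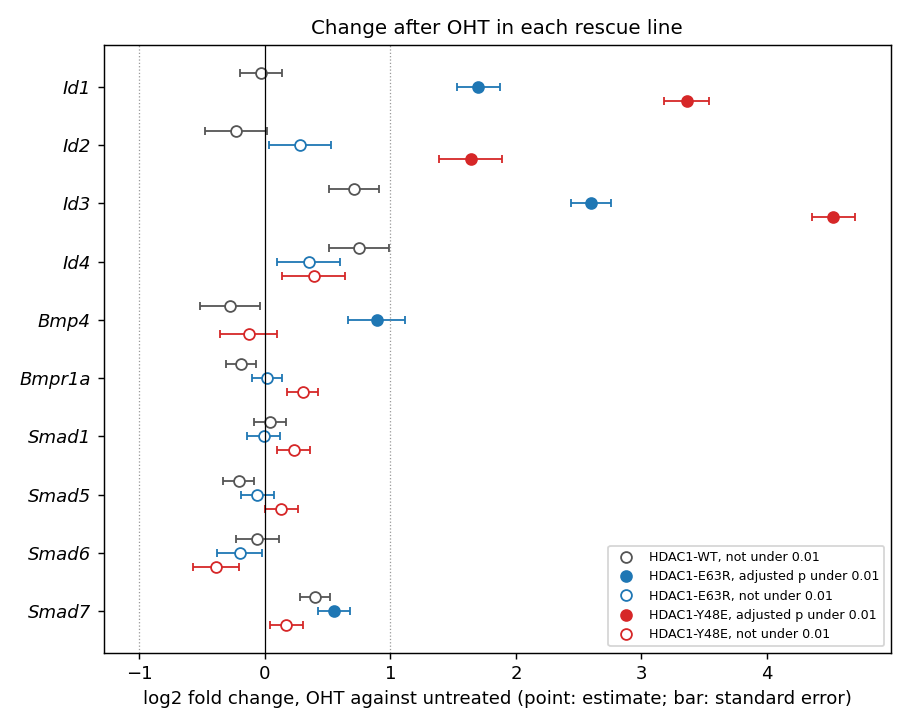
Log2 fold change after OHT (x axis) of the 10 genes in the HDAC1-WT, HDAC1–E63R and HDAC1–Y48E lines, with bars for the standard error, filled points for an edgeR adjusted p under 0.01 and dotted lines at 1 and -1. Id1 and Id3 lie furthest to the right with HDAC1–Y48E, at 3.36 and 4.53, and all values of Bmpr1a, Smad1, Smad5 and Smad6 lie between -1 and 1.

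Among all 18791 tested genes, 0.0532% were DEGs after OHT with HDAC1-WT, against 5.91% for HDAC1–E63R and 16.6% for HDAC1–Y48E. Of the 10 genes, 0, 2 and 3 were DEGs in these lines. All of these DEGs were higher after OHT and all were Id genes, and higher DEGs made up 4.74% of tested genes with HDAC1–E63R and 10.8% with HDAC1–Y48E. With HDAC1-WT, where edgeR called none, 3 of the 10 had an unadjusted p under 0.05 (Id3, Id4 and Smad7, all higher), and DESeq2 put none past the test. The median log2 fold change of the 4 Id genes was 0.34, 1.03 and 2.50 in the same order of lines, beside 0, 0.03 and 0.05 over all tested genes. The median of the 6 BMP ligand, receptor and SMAD genes was -0.12, 0.01 and 0.15.

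The 3 lines were then compared with each other in their OHT response, by an interaction term that subtracts one response from another. The response of Id1 in the HDAC1–Y48E line exceeded that in the HDAC1–E63R line by 1.66 on the log2 scale (SE 0.24, edgeR adjusted p = 0.000153), and that of Id3 did so by 1.93 (0.23, edgeR adjusted p = 1.71e-05). Without the library that stands apart these values were 1.28 and 1.75, and both passed. A DEG-sized excess of HDAC1–Y48E over HDAC1–E63R was found for 0.319% of tested genes. For Id2 the difference was 1.36 (0.35) and missed the test (edgeR adjusted p = 0.0266), but it passed with DESeq2 (adjusted p = 0.00518) and, at 1.06, without the library that stands apart (edgeR adjusted p = 0.00276). Against the HDAC1-WT line, 3 of the 10 genes responded more strongly with HDAC1–Y48E, by 3.39 for Id1 (0.25, edgeR adjusted p = 2.41e-09), 1.87 for Id2 (0.35, edgeR adjusted p = 0.000515) and 3.82 for Id3 (0.26, edgeR adjusted p = 9.35e-10), beside 4.65% of tested genes. With HDAC1–E63R, 2 of the 10 exceeded HDAC1-WT, Id1 by 1.73 (0.24, edgeR adjusted p = 0.000123) and Id3 by 1.89 (0.26, edgeR adjusted p = 7.91e-05), beside 1.25% of tested genes, or by 2.1 and 2.06 without the library that stands apart. These comparisons share libraries and are not independent of each other. For Id4 no such difference passed the test, with values of 0.04 between the mutants and of -0.36 and -0.40 against HDAC1-WT for HDAC1–Y48E and HDAC1–E63R.

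Bmp4 (chromosome 14, 46383520 to 46390669, minus strand) is the ligand gene of the set. It rose in the HDAC1–E63R line, from 15.0, 21.2 and 9.95 CPM to 30.9, 26.4 and 28.3 CPM (log2 fold change 0.89, SE 0.23, edgeR adjusted p = 0.00596). Treated and untreated libraries were apart there, but the call was lost in 5 of 6 leave-one-out fits (each without a library of that line), among them the fit without the library that stands apart (0.66, edgeR adjusted p = 0.0158), and when that line was fitted alone (edgeR adjusted p = 0.0625). In the HDAC1–Y48E line, where the Id genes rose most, Bmp4 had 13.4, 13.8 and 15.4 CPM without OHT and 13.3, 15.2 and 10.3 CPM with it (-0.13, 0.23, edgeR adjusted p = 0.681). In the HDAC1-WT line it had 7.81, 11.3 and 10.2 CPM without OHT and 6.55, 7.80 and 9.80 CPM with it (-0.28, 0.24, edgeR adjusted p = 0.794). The groups overlapped in both of these lines. The difference of responses between HDAC1–Y48E and HDAC1–E63R, -1.02 (0.32), missed the test (edgeR adjusted p = 0.0713), as did that between HDAC1–E63R and HDAC1-WT, 1.17 (0.33, edgeR adjusted p = 0.0387). Gm15217 on the other strand overlaps 3.96% of the exons of Bmp4.

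**Figure D3:**
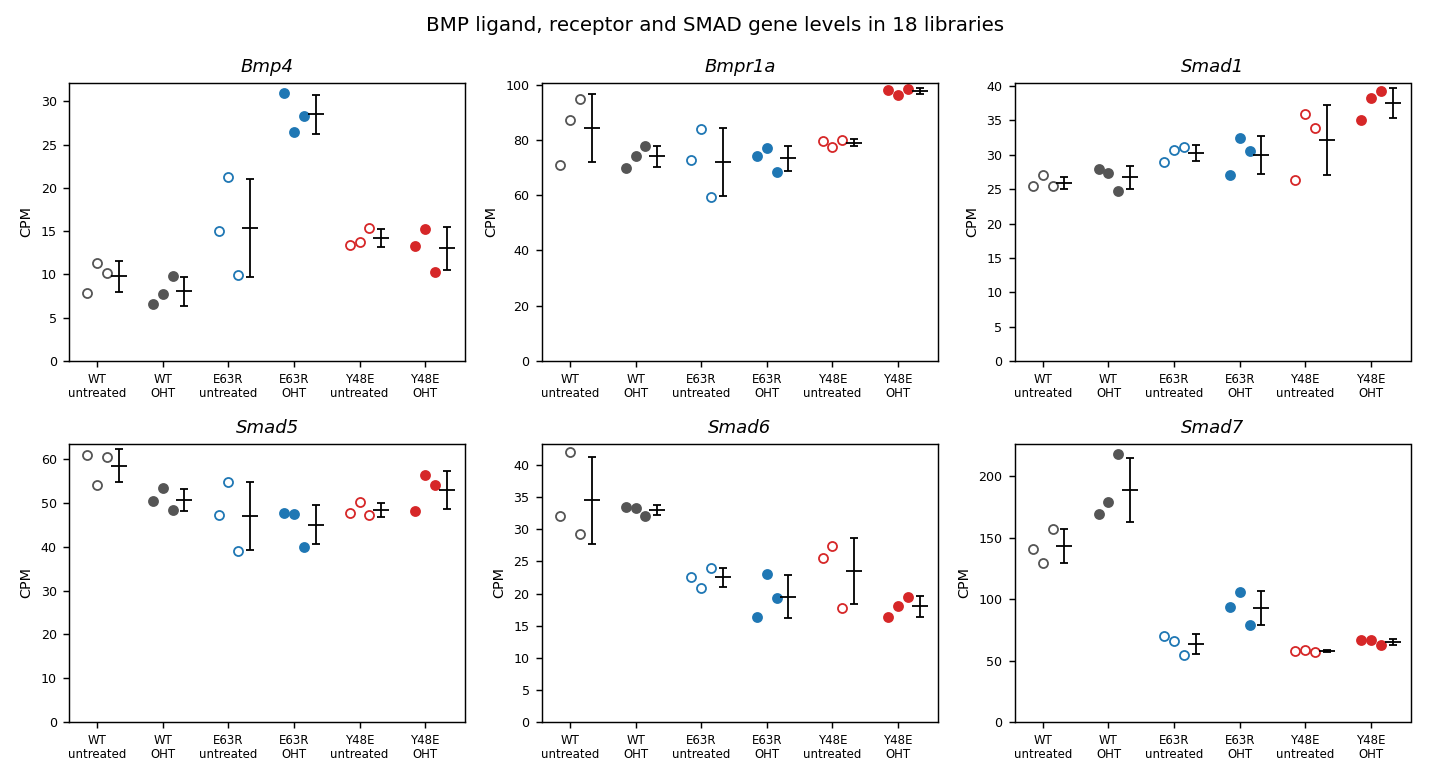
Levels of Bmp4, Bmpr1a, Smad1, Smad5, Smad6 and Smad7 in CPM (linear scale from 0) in each of the 18 libraries, by rescue line and treatment (open points, untreated; filled points, OHT; bars, mean and SD of 3 libraries). Smad7 lies at 129 CPM or more in the 6 HDAC1-WT libraries and at 106 CPM or less in the 12 mutant ones.

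Bmpr1a (chromosome 14, 34410734 to 34503341, minus strand), which encodes a type I BMP receptor, kept a narrow range, with group means from 72.1 CPM in untreated HDAC1–E63R cells to 97.6 CPM in OHT-treated HDAC1–Y48E cells. Its OHT difference with HDAC1–Y48E was 0.30 (SE 0.12), from 79.6, 77.5 and 79.9 CPM to 98.2, 96.4 and 98.3 CPM. These libraries did not overlap, yet the value missed the test (edgeR adjusted p = 0.0465), and it passed when that line was fitted alone (edgeR adjusted p = 0.00234). The differences in the HDAC1–E63R and HDAC1-WT lines were 0.02 and -0.19. Gm17110 on the other strand overlaps 4.57% of its exons.

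Smad1 (chromosome 8, 79338395 to 79399518, minus strand) and Smad5 (chromosome 13, 56703010 to 56742377, plus strand) encode the SMADs that BMP receptors phosphorylate, and neither passed the test in any OHT response. Smad1 had group means between 25.9 CPM (untreated HDAC1-WT) and 37.5 CPM (OHT-treated HDAC1–Y48E), with log2 differences after OHT of 0.04, -0.01 and 0.23 (SE 0.13 in each) with HDAC1-WT, HDAC1–E63R and HDAC1–Y48E. Smad5 had group means between 45.0 CPM (OHT-treated HDAC1–E63R) and 58.5 CPM (untreated HDAC1-WT), with log2 differences of -0.21, -0.06 and 0.13 in the same order. In the ordering of its 6 groups by mean level, each group of Smad1 overlapped the next, and the same held for Smad5. Groups further apart in that order could be separate. Smad1 had 35.0, 38.2 and 39.3 CPM in OHT-treated HDAC1–Y48E cells and 27.9 CPM or less in all HDAC1-WT libraries. Smad5 had 47.7, 50.2 and 47.3 CPM in untreated HDAC1–Y48E cells and 61.0, 54.1 and 60.4 CPM in untreated HDAC1-WT cells, which missed the test (edgeR adjusted p = 0.131). The exons of Smad5 share 1.35% of their length with Gm27301 on the same strand.

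Smad7 encodes an inhibitory SMAD that acts on BMP and TGF-beta signals. It had 141, 129 and 157 CPM in untreated HDAC1-WT cells and 169, 179 and 218 CPM after OHT. HDAC1–E63R cells held 69.9, 65.7 and 54.3 CPM and, after OHT, 93.4, 106 and 78.6 CPM, and HDAC1–Y48E cells held 58.0, 58.6 and 57.3 CPM and, after OHT, 66.6, 66.9 and 62.5 CPM. In each line the treated libraries lay above the untreated ones, and only the difference with HDAC1–E63R passed the test. It was 0.55 on the log2 scale (SE 0.13, edgeR adjusted p = 0.00291), or 0.45 without the library that stands apart (edgeR adjusted p = 0.00117). It was lost without OHT replicate 1 (0.54, edgeR adjusted p = 0.013) and without OHT replicate 2 (0.44, edgeR adjusted p = 0.0289), as well as when that line was fitted alone (edgeR adjusted p = 0.0662). The differences in the other lines were 0.40 (0.12, edgeR adjusted p = 0.198) with HDAC1-WT and 0.17 (0.13, edgeR adjusted p = 0.285) with HDAC1–Y48E, and no difference between the responses of the lines passed the test. That of HDAC1-WT passed when this line was fitted alone (0.41, edgeR adjusted p = 0.00912).

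Smad6 (chromosome 9, 63953076 to 64022059, minus strand), the inhibitor that acts mostly on BMP signals, had 32.0, 42.0 and 29.3 CPM in untreated HDAC1-WT cells and 33.5, 33.3 and 32.1 CPM after OHT. It had 22.6, 20.9 and 23.9 CPM in untreated HDAC1–E63R cells and 16.3, 23.0 and 19.3 CPM after OHT. In HDAC1–Y48E cells it had 25.5, 27.4 and 17.7 CPM without and 16.4, 18 and 19.5 CPM with OHT. Treated and untreated libraries overlapped in all 3 lines, and the 6 HDAC1-WT libraries were all above the 12 mutant ones. The OHT differences were -0.06, -0.20 and -0.39 on the log2 scale (SEs 0.17, 0.18 and 0.18) and missed the test (edgeR adjusted p = 0.958, 0.434 and 0.0818 with HDAC1-WT, HDAC1–E63R and HDAC1–Y48E).

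The untreated mutant lines were next compared with the untreated HDAC1-WT line, in cells that still hold their endogenous deacetylases. Id3 was higher and Smad7 lower in both mutant lines. Both comparisons use the same HDAC1-WT libraries and are therefore given side by side. Of the 10 genes, 2 were DEGs in each (1 higher and 1 lower), while DEGs made up 7.65% of tested genes for HDAC1–E63R (3.32% higher and 4.33% lower) and 5.57% for HDAC1–Y48E (2.62% higher and 2.95% lower).

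Id3 was higher by 1.67 on the log2 scale in the HDAC1–E63R line (SE 0.19, edgeR adjusted p = 9.73e-07, 1.5 without the library that stands apart) and by 1.16 in the HDAC1–Y48E line (0.20, edgeR adjusted p = 0.000149). Smad7 differed by -1.17 (0.13, edgeR adjusted p = 4.98e-07, -1.07 without that library) and -1.30 (0.13, edgeR adjusted p = 1.78e-07) in the same order. The untreated libraries of each mutant line did not overlap those of HDAC1-WT for either gene. Smad6 missed the test in both, at -0.62 for HDAC1–E63R (edgeR adjusted p = 0.0103) and -0.55 for HDAC1–Y48E (edgeR adjusted p = 0.0261), although the former passed under DESeq2 (adjusted p = 0.00781). The untreated difference of Id1 was 0.29 with HDAC1–E63R (edgeR adjusted p = 0.222) and -0.39 with HDAC1–Y48E (edgeR adjusted p = 0.124), and the former was -0.07 without the library that stands apart. Without that library, Bmp4 (0.89, edgeR adjusted p = 0.00134), Id2 (-0.72, edgeR adjusted p = 0.00365) and Smad6 (-0.66, edgeR adjusted p = 0.00377) also passed the test in HDAC1–E63R cells. With all libraries Id2 missed the test, at -0.43 with HDAC1–E63R (edgeR adjusted p = 0.215) and -0.42 with HDAC1–Y48E (edgeR adjusted p = 0.265). When the compared libraries were fitted alone, Id1 (-0.40, edgeR adjusted p = 0.00802), Id2 (-0.42, edgeR adjusted p = 0.00546) and Smad6 (-0.55, edgeR adjusted p = 0.00634) passed in HDAC1–Y48E cells. Hdac1 was lower in both untreated mutant lines as well, with log2 differences of -0.96 (0.09, edgeR adjusted p = 8.81e-08) and -1.02 (0.09, edgeR adjusted p = 5.60e-08), and whether this difference has a part in those of Id3 and Smad7 was not tested.

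**Figure D4:**
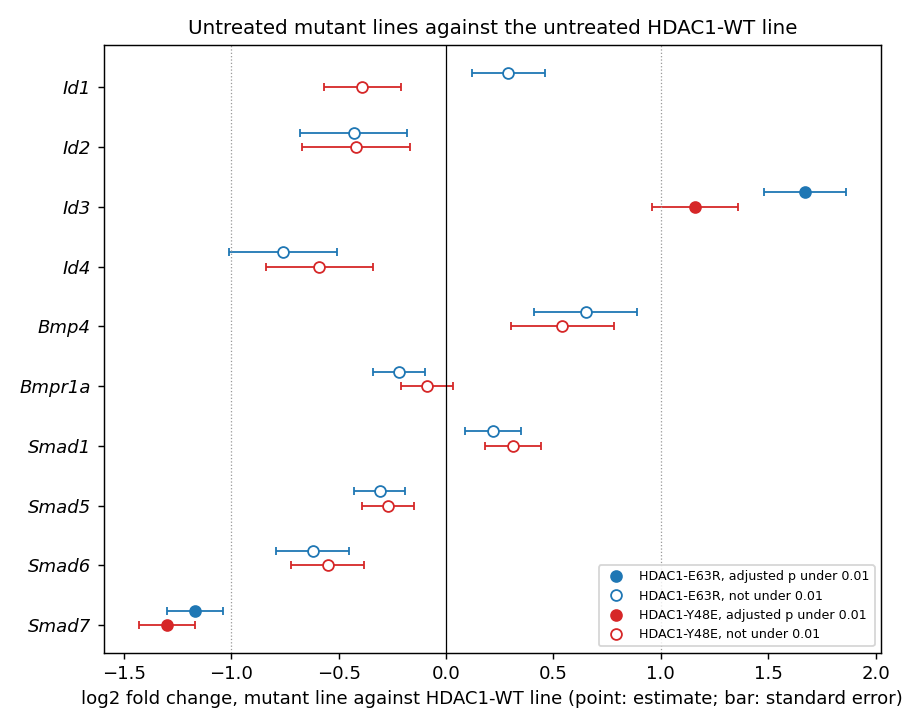
Log2 fold change of the 10 genes in untreated HDAC1–E63R and HDAC1–Y48E cells against untreated HDAC1-WT cells (x axis), with bars for the standard error, filled points for an edgeR adjusted p under 0.01 and dotted lines at 1 and -1. Id3 lies to the right of 1 (1.67 and 1.16) and Smad7 to the left of -1 (-1.17 and -1.30) in both mutant lines.

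Compared per length of exon, Id1 was the most abundant of the 10 transcripts in every group, from 32.4 CPM per kb in untreated HDAC1–Y48E cells to 334 CPM per kb after OHT, and only in OHT-treated HDAC1-WT cells did Smad7 reach the same mean (41.8 CPM per kb each). Id3 changed its place most. It was 9th of 10 in untreated HDAC1-WT cells, at 2.47 CPM per kb, and 2nd in the OHT-treated mutant lines, at 47.9 CPM per kb with HDAC1–E63R and 128 CPM per kb with HDAC1–Y48E. Id4 was the least abundant of the 10 in every group but OHT-treated HDAC1-WT cells, where Bmp4 was lower. Ordered by mean CPM, the groups of Id1 rose from untreated HDAC1–Y48E (37.6) through OHT-treated and untreated HDAC1-WT (48.5 and 49.3) and untreated HDAC1–E63R (60.6) to OHT-treated HDAC1–E63R (197) and OHT-treated HDAC1–Y48E (387), and the 3 groups in the middle overlapped their neighbours among them. For Id3 the order was untreated and OHT-treated HDAC1-WT (4.43 and 7.26), untreated HDAC1–Y48E (9.93), untreated HDAC1–E63R (14.2), OHT-treated HDAC1–E63R (85.7) and OHT-treated HDAC1–Y48E (230), and untreated HDAC1–Y48E overlapped both of its neighbours.

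The genes whose log2 CPM ran most like that of an Id gene over the 18 libraries were taken from 16674 genes with a mean of at least 1 CPM. For Id1 these were Clu, Krt19 and Rras2 (Pearson r 0.99, 0.99 and 0.98), for Id3 H2-Q7, Cavin1 and Nnat (0.99, 0.98 and 0.98), for Id2 Rnf19b, Clstn3 and Col27a1 (0.94, 0.92 and 0.92) and for Id4 Ckap4, Tcte1 and Itgb3 (0.91, 0.88 and 0.87). The 18 libraries fall into 6 groups and share their scaling, so these values mostly compare group means. No gene was nearest to more than 1 Id gene.

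Of 50 other genes of the pathway, in 7 lists by role, 41 were tested, and in the OHT responses 0 passed with HDAC1-WT, 1 rose and 2 fell with HDAC1–E63R, and 6 rose and 6 fell with HDAC1–Y48E. Of all tested genes, 0.0585% passed in either direction with HDAC1-WT, while 7.49% rose and 6.82% fell with HDAC1–E63R and 16.2% rose and 14.7% fell with HDAC1–Y48E. With HDAC1-WT, 5 of the 41 had an unadjusted p under 0.05 in edgeR, and DESeq2 called none of the 36 to which it gave an adjusted p. The median log2 fold change of the 41 genes was -0.08, 0.20 and 0.29, beside 0, 0.03 and 0.05 over all tested genes.

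Among the ligand genes, Gdf3, whose product is a BMP-related ligand of pluripotent cells, fell in both mutant lines. It went from 72.8, 78.5 and 69.4 CPM to 13.2, 14.1 and 12.4 CPM with HDAC1–Y48E (log2 fold change -2.47, SE 0.12, edgeR adjusted p = 1.51e-12), and from 62.6, 63.6 and 78.7 CPM to 40.1, 37.3 and 38.2 CPM with HDAC1–E63R (-0.82, 0.11, edgeR adjusted p = 1.62e-05, or -0.71 without the library that stands apart). The call with HDAC1–E63R was lost when that line was fitted alone (edgeR adjusted p = 0.0117). The responses differed between the mutants by -1.65 (0.16, edgeR adjusted p = 2.29e-06), or -1.76 without the library that stands apart. Of the 6 tested ligand genes, Bmp7 also fell (-0.98) and Bmp8b rose (0.57) with HDAC1–Y48E, and Bmp8b lost its call in 5 of 6 leave-one-out fits, with no filter on low counts (edgeR adjusted p = 0.0194) and with the replicate number as a block (edgeR adjusted p = 0.0133). Among the pathway genes named here, Gdf3, Twsg1, Msx2 and Tbx3 met the rule for naming and the others were picked after their values were seen.

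Of 10 tested receptor and coreceptor genes, the type II receptor gene Acvr2a (0.73) and the coreceptor gene Tgfbr3 (0.91) rose with HDAC1–Y48E, and their calls were lost in 2 and all 6 of the leave-one-out fits. Tgfbr3 reached a mean of 11.8 CPM there, beside 14 and 12.6 CPM in untreated and OHT-treated HDAC1-WT cells. None of the 10 receptor and coreceptor genes passed with HDAC1–E63R. The transducer genes Smad4 and Smad9 passed in no OHT response. The response of Smad9 exceeded that with HDAC1-WT by 5.26 with HDAC1–E63R (SE 1.15, edgeR adjusted p = 0.00693) and by 4.04 with HDAC1–Y48E (1.08, edgeR adjusted p = 0.0095). Higher DEGs made up 1.25% and 4.65% of tested genes there. The log2 fold change of Smad9 was -2.69 with HDAC1-WT (edgeR adjusted p = 0.209), 2.57 with HDAC1–E63R (edgeR adjusted p = 0.0193) and 1.35 with HDAC1–Y48E (edgeR adjusted p = 0.117). Both differences thus hold a fall with HDAC1-WT that missed the test, from 15, 32 and 6 counts to 2, 2 and 4 counts. The calls of Smad9 were not checked under the alternatives. Of 10 tested extracellular and membrane inhibitors, Twsg1, whose product binds BMP ligands, rose with HDAC1–Y48E, from 138, 136 and 157 CPM to 296, 292 and 307 CPM (log2 fold change 1.05, SE 0.11, edgeR adjusted p = 1.26e-07). All 3 treated libraries were above the untreated ones. HDAC1-WT cells had means of 245 CPM without and 214 CPM with OHT, both above the untreated HDAC1–Y48E mean of 144 CPM. With HDAC1–E63R the difference of Twsg1 was 0.21 (0.11, edgeR adjusted p = 0.173), and the responses of the mutant lines differed by 0.84 (0.16, edgeR adjusted p = 0.00217), or 0.96 without the library that stands apart. That call was lost in 3 of 12 leave-one-out fits and when the compared libraries were fitted alone (edgeR adjusted p = 0.0139). The BMP antagonist gene Chrdl1 was also called with HDAC1–Y48E, from 0, 2 and 1 counts to 30, 18 and 34 counts (edgeR adjusted p = 0.00193), a call that was lost without untreated replicate 1 or 3 (edgeR adjusted p = 0.0153 and 0.0126). Of 5 tested intracellular inhibitors, Tob1, whose product restrains SMAD signalling, fell in both mutant lines (-0.93 with HDAC1–E63R, or -0.82 without the library that stands apart, and -0.95 with HDAC1–Y48E), and Skil fell with HDAC1–Y48E (-0.55).

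Of 5 tested targets other than the Id genes and inhibitory SMADs, Msx2, a homeobox gene that BMP signals induce in many tissues, rose with HDAC1–E63R, from 1.20, 0.904 and 0.457 CPM to 4.22, 4.48 and 4.79 CPM (log2 fold change 2.36, SE 0.55, edgeR adjusted p = 0.00331). Without the library that stands apart the value was 2.07 and passed. The call was lost in 2 of 6 leave-one-out fits and when that line was fitted alone (edgeR adjusted p = 0.015). Mean levels of Msx2 in HDAC1-WT cells were 3.08 CPM without and 2.91 CPM with OHT, above the untreated HDAC1–E63R mean of 0.854 CPM. The difference of responses between HDAC1–E63R and HDAC1-WT passed the test for none of the 5 targets. With HDAC1–Y48E Msx2 went from 2.42, 0.342 and 3.45 CPM to 6.22, 5.89 and 5.40 CPM and missed the test (1.48, 0.50, edgeR adjusted p = 0.021). Tbx3, a T-box gene of the naive ESC network, went the other way with HDAC1–Y48E, from 86.9, 88.0 and 84.2 CPM to 42.2, 39.5 and 40.5 CPM (-1.08, 0.13, edgeR adjusted p = 6.98e-07). The MAP kinase phosphatase gene Dusp9 rose slightly there (0.32) and lost its call in all 6 leave-one-out fits and with no filter (edgeR adjusted p = 0.0295). Tcf3, which encodes an E protein, was the only one of 3 E protein genes to pass in an OHT response. It fell by 0.33 on the log2 scale with HDAC1–Y48E. That call was lost in 4 of 6 leave-one-out fits, with relative log expression factors (edgeR adjusted p = 0.0103) and with no filter (edgeR adjusted p = 0.0317).

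Between the untreated lines, 1 of the 41 genes was higher and 8 lower with HDAC1–E63R than with HDAC1-WT, and 1 higher and 6 lower with HDAC1–Y48E. Of all tested genes, 9.04% were higher and 7.83% lower in the former comparison and 6.42% higher and 5.74% lower in the latter. Tbx3 was lower in both, with log2 differences of -1.63 (SE 0.13, edgeR adjusted p = 5.29e-09) with HDAC1–E63R, -1.46 without the library that stands apart, and -1.08 (0.13, edgeR adjusted p = 1.90e-06) with HDAC1–Y48E. Twsg1 was lower too (-0.93, or -0.80 without that library, and -0.77), and Bmp7, Eng, Tgfbr3 and Dusp9 were lower in both lines, although with HDAC1–Y48E Bmp7 lost the call in 4 and Tgfbr3 in 3 of 6 leave-one-out fits. Without the library that stands apart, the values with HDAC1–E63R were -0.85 for Bmp7, -0.81 for Eng, -2.12 for Tgfbr3 and -0.65 for Dusp9, and all passed. With HDAC1–E63R the calls of Eng and Dusp9 were lost when the compared libraries were fitted alone (edgeR adjusted p = 0.0117 and 0.0124). So were those of Skil (0.49, the 1 higher gene), Nbl1 (-1.90) and Tcf12 (-0.87), with edgeR adjusted p = 0.0716, 0.0925 and 0.0755. Without the library that stands apart their values were 0.61, -2.52 and -0.57 and passed. Skil lost its call in 2 and Nbl1 in 4 of 6 leave-one-out fits, and Nbl1 also with relative log expression factors (edgeR adjusted p = 0.0102). The median log2 difference of the 41 genes was -0.19 and -0.23, beside 0 over all tested genes in each.

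Markers of cell types also moved after OHT in the lines in which the Id genes rose. Beside the marker counts below, 16.2% of all tested genes rose and 14.7% fell with HDAC1–Y48E. With HDAC1–E63R, 7.49% rose and 6.82% fell. Counts of 1 or 2 markers of a short list are too few to set against these shares, and sums weigh the most abundant markers most. The marker counts were not checked under the alternatives, nor without the library that stands apart. The summed level of 10 ESC markers fell from between 6510 and 6580 CPM to between 2770 and 2920 CPM in the HDAC1–Y48E line, where 9 of them were lower past the test, and went from between 5880 and 9380 CPM to between 4970 and 5300 CPM in the HDAC1–E63R line, where 5 were lower and 1 higher. In the HDAC1-WT line it lay between 8390 and 8540 CPM without OHT and between 8760 and 9640 CPM with it, and none passed. The summed level of 8 trophoblast markers went from between 101 and 111 CPM to between 144 and 155 CPM with HDAC1–Y48E (4 of 8 tested rose) and from between 93.2 and 104 CPM to between 178 and 191 CPM with HDAC1–E63R (5 rose and 1 fell), and it stood between 225 and 283 CPM with HDAC1-WT. Primitive endoderm markers summed to between 164 and 190 CPM without and between 235 and 259 CPM with OHT in the HDAC1–Y48E line, and to between 57.8 and 107 CPM and between 163 and 169 CPM in the HDAC1–E63R line, with 1 and 2 of 7 tested markers higher. In the HDAC1-WT line they summed to between 156 and 191 CPM. Fibroblast markers summed to between 23.9 and 28.6 CPM without and between 89.4 and 99.9 CPM with OHT in the HDAC1–Y48E line (3 of 4 tested rose), and to between 13.8 and 19.2 CPM and between 51.7 and 61.1 CPM in the HDAC1–E63R line (2 of 4 rose). With HDAC1-WT they went from between 25.5 and 25.8 CPM to between 37.2 and 43.9 CPM, and none passed. Mesoderm markers were low, but 1 of 4 tested rose in each mutant line, with sums from between 3.52 and 5.69 CPM to between 11.2 and 14.1 CPM for HDAC1–Y48E and from between 3.28 and 5.55 CPM to between 9.05 and 9.77 CPM for HDAC1–E63R. Their sums with HDAC1-WT lay between 4.15 and 8.43 CPM. Of the 8 fibroblast and 8 mesoderm markers listed, only 4 each were tested. Lum and Msgn1, one from each list, were at 0 counts in all libraries of every group but OHT-treated HDAC1–E63R. The fibroblast marker Dcn was at 0 counts in all HDAC1-WT, untreated HDAC1–E63R and OHT-treated HDAC1–Y48E libraries. The trophoblast marker Cdx2 was at 0 counts in the OHT-treated HDAC1-WT libraries. The part of these changes in those of the Id genes was not tested.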

How the data were processed

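RNA-seq libraries of 18 samples (3 lines, without and with OHT, 3 replicates each) were analysed from the deposited raw counts per gene symbol. Per the submitters' processing notes, HISAT2 2.1.0, SAMtools 1.9 and HTSeq (version not given in the sources used here) were used with mm10, and the authors deposited the counts without normalization. Use of strand is not given in the sources used here. Entries that name no gene (59.4% to 61.2% of a library) were left out. Each library held from 9019615 to 11454638 counts that name a gene, which sets the floor of 3 counts.

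Genes were filtered with filterByExpr and scaled with TMM factors, and 1 quasi-likelihood model (edgeR 4.0.16, R 4.3.3) with a mean for each of the 6 groups held all 18 libraries. The authors' DESeq2 Wald test (here DESeq2 1.42.0) was an alternative, with relative log expression factors, library totals alone, no filter, a replicate block, the compared libraries alone and each library left out. The 10 genes, the pathway and marker lists and the tests were chosen with earlier results of these data known. The rule for naming pathway genes was that they were DEGs after OHT, with groups that did not overlap and a mean of at least 1 CPM. Other pathway genes were named after their values were seen. The genes most like each Id gene were named by Pearson's r. Same-numbered replicates did not deviate together (correlations from -0.019 to 0.044), so the numbers were not read as pairs. Positions and exon lengths are from GENCODE M21 (mm10), and sequences from RefSeq (GRCm38.p6).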

Additional observations from a re-analysis of the deposited data

Results flagged for a closer look

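The OHT responses of 3 Id genes differed between lines by the interaction test of edgeR (Benjamini-Hochberg adjusted over all tested genes), which is why they are listed. Between HDAC1–Y48E and HDAC1-WT the log2 responses differed by 3.39 for Id1 (SE 0.25, edgeR adjusted p = 2.41e-09), 1.87 for Id2 (0.35, edgeR adjusted p = 0.000515) and 3.82 for Id3 (0.26, edgeR adjusted p = 9.35e-10). Between HDAC1–E63R and HDAC1-WT they differed by 1.73 for Id1 (0.24, edgeR adjusted p = 0.000123) and 1.89 for Id3 (0.26, edgeR adjusted p = 7.91e-05). Between the mutants the differences were 1.66 for Id1 (0.24, edgeR adjusted p = 0.000153) and 1.93 for Id3 (0.23, edgeR adjusted p = 1.71e-05). In each of these, all 3 OHT-treated libraries of the mutant line with the larger response were above its 3 untreated ones. All 7 calls held with each library of the lines compared left out in turn.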

How the results depend on the processing

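The DEG calls among the 10 genes kept their direction and their call under every alternative run for them, and the counts of such DEGs stayed within 1 of those reported. Counts over all genes moved more. With no filter on low counts, 50 genes were DEGs in the HDAC1-WT line, 530 in the difference between HDAC1–E63R and HDAC1-WT and 419 in that between the mutants. With the compared libraries alone, they were 22 for OHT with HDAC1-WT, 388 for OHT with HDAC1–E63R, 144 in the difference of these responses and 504 between untreated HDAC1–E63R and HDAC1-WT. Of the 10 genes, those that passed then numbered 1 (Smad7, edgeR adjusted p = 0.00912), 2 and 5 for OHT with HDAC1-WT, OHT with HDAC1–E63R and untreated HDAC1–Y48E. DESeq2 gave 35 DEGs in the HDAC1-WT line and 490 in the first difference. With the replicate block there were 5 DEGs in the HDAC1-WT line, and Bmp8b with HDAC1–Y48E lost its call (edgeR adjusted p = 0.0133), while no other call tested this way changed. With each library left out, DEGs numbered 3 to 7 in the HDAC1-WT line, 206 to 486 in the difference between HDAC1–E63R and HDAC1-WT and 184 to 465 in that between the mutants, with 2 to 4 of the 10 genes past the test with HDAC1–E63R and 2 to 5 for untreated HDAC1–E63R. The same fits turned the sign of small log2 differences that passed no test. With HDAC1-WT, Id1 ranged from -0.15 to 0.03, Id2 from -0.48 to 0.10 and Smad6 from -0.16 to 0.11. With HDAC1–E63R, Bmpr1a ranged from -0.10 to 0.15, Smad1 from -0.07 to 0.06 and Smad5 from -0.18 to 0.06, and with HDAC1–Y48E, Bmp4 from -0.26 to 0.01. The response difference of Smad1 between HDAC1–E63R and HDAC1-WT ranged from -0.11 to 0.02 and that of Id4 between the mutants from -0.11 to 0.24. Between untreated lines, Id1 ranged from -0.07 to 0.47 with HDAC1–E63R and Bmpr1a from -0.20 to 0.01 with HDAC1–Y48E. The difference of Id2 between the mutants passed with no filter, with the compared libraries alone and with DESeq2. Of the 60 mean levels, 13 moved by more than 1 SD when scaled by library totals alone, Id1 in OHT-treated HDAC1–Y48E cells to 427 CPM. The causes were not tested. Msx2 and Chrdl1 were near or under the floor of 3 counts in some libraries, as were other genes of the pathway lists.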
